A study of Homo sapiens with 24 samples.

Results

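The response to Nutlin-3a was measured in 3 SK-HEP-1 lines that carry a guide RNA against PURPL, a long noncoding RNA gene on chromosome 5. SK-HEP-1 is a human line from a liver adenocarcinoma, and its cells are labelled endothelial. All lines of the series are CRISPR interference (CRISPRi) lines, in which a Cas9 that does not cut is sent to a promoter by a guide RNA to block transcription there. The lines with PURPL guides 4, 5 and 6 are called sg4, sg5 and sg6 here. Each was treated for 6 h with 10 µM Nutlin-3a or with its solvent DMSO, and 2 biological replicates, numbered harvests 1 and 3, were taken of each. These are 12 of the 24 libraries of the series, 6 with Nutlin-3a and 6 with DMSO. They were chosen by their labels. The 4 libraries of a line with PURPL guide 2 were left out because of the base composition of 1 of its Nutlin-3a libraries, and the 8 libraries of 2 lines with non-targeting guides (NTC1 and NTC2, same treatments) were used for comparison. Each line is 1 population of cells with 1 guide, so the spread between harvests is not the spread between independently made lines.

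Nutlin-3a is a small molecule that fills the pocket of MDM2 in which the transcription factor p53 sits. MDM2 is the ubiquitin ligase that marks p53 for degradation, so its loss from p53 lets the p53 protein build up without DNA damage. p53 then binds paired half-sites in DNA and raises transcription of genes for cell cycle arrest, apoptosis, repair and metabolism, MDM2 among them. The p21 protein, made from CDKN1A, inhibits cyclin-dependent kinases. Unphosphorylated RB family proteins then hold E2F factors and the DREAM complex on the promoters of cell cycle genes and keep them low. PURPL is itself a p53 target in human cells.

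The 12 libraries held 68248537 to 85349265 estimated counts each. Levels are given as CPM, a library's counts scaled to a common total after TMM normalisation. The first principal component held 45.9% of the variance of the 12 libraries and placed the Nutlin-3a libraries at 18.8 to 40.6 and the DMSO libraries at -37.8 to -25.0. The Nutlin-3a library of sg5 from harvest 3 stood apart in base composition. Its log2 level, relative to the median of all libraries, rose by 0.33 for each 10 percentage points of GC, and the slopes of the other 11 lay between -0.21 and 0.13. Without it, 3107 genes rose and 3658 fell in the test described below, beside 3194 and 3618 with it. Transcripts of the mitochondrial genome took 0.914% to 1.08% of the counts with DMSO and 1.11% to 1.33% with Nutlin-3a, groups that did not overlap, and the part of this share in the results was not tested. Of 18 endothelial marker genes 4 were high enough to be tested, and KDR, ERG, SOX17 and MMRN1 had no count in any of the 12 libraries. The endothelial markers summed to 24.8 to 34.1 CPM with DMSO and 25.8 to 59.2 CPM with Nutlin-3a. Of 18 hepatocyte markers 3 were tested, and they summed to 2.57 to 3.40 CPM and 2.86 to 3.81 CPM. Of 10 epithelial markers 7 were tested and 3 rose (42.9%, beside 20.5% of all genes tested). The 10 summed to 1374 to 1964 CPM and 1720 to 2654 CPM, ranges that overlap. Of the markers tested, 2 of 4 endothelial and 1 of 3 hepatocyte genes rose too. So did 4 of 11 fibroblast and mural genes and 1 of 4 leukocyte genes, and no member of these panels was called down. Vimentin (VIM) stood at a mean of 3825 CPM with DMSO and 3812 CPM with Nutlin-3a. Leukocyte markers summed to at most 35.1 CPM.

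PURPL, the targeted gene (ENSG00000250337, chromosome 5, 27472292 to 27496401 on hg38, forward strand), was low in all 12 libraries and rose with Nutlin-3a. The 6 DMSO libraries ran from 0.518 to 0.868 CPM with a median of 0.582, and the 6 Nutlin-3a libraries from 1.60 to 2.93 CPM with a median of 2.00. The groups did not overlap. In the NTC lines the gene stood at 7.54 to 10.2 CPM with DMSO and at 29.8 to 38.0 CPM with Nutlin-3a, so each of the 12 libraries lay below each NTC library. The log2 fold change in the guide lines was 1.71 (SE 0.14, edgeR adjusted p = 4.91e-07). It was 2.05 in sg4, 1.60 in sg5 and 1.48 in sg6, beside 2.01 in the NTC lines. The response of the guide lines differed from that of the NTC lines by -0.28 on the log2 scale, with an edgeR adjusted p = 0.506. The window of RefSeq around its start holds a match to the full p53 consensus, 2 half-sites back to back, and it is printed because the gene is both the target of the guides and a gene that rose. It covers chr5:27472042-27472341, forward strand, on GRCh38.p14. The site, in capitals, lies from -127 to -108 relative to the start.
PURPL: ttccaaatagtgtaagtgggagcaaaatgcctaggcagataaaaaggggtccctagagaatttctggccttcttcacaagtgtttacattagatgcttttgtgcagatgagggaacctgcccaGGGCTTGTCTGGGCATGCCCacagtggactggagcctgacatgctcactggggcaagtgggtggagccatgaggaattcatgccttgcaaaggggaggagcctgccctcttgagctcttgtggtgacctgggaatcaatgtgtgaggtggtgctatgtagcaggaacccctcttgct

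Nutlin-3a moved a large share of the transcriptome by small amounts and a small set of genes by large amounts. Of 15568 genes tested, 3194 (20.5%) were called up and 3618 (23.2%) down, with edgeR p-values adjusted over all genes and a threshold of 0.05. At 2-fold or more, 428 rose (2.75%) and 155 fell (0.996%). The median fold change of genes called up was 1.36 and that of genes called down 1.26, and 64.9% of the former and 79.4% of the latter changed by less than 1.5-fold. Large changes were mostly increases, with 107 genes up and 11 down by at least 4-fold, and 43 up and 2 down by at least 8-fold. Of the 583 genes past 2-fold, which were chosen on these same libraries, 341 had all Nutlin-3a libraries above all DMSO libraries and 133 had them below. Over all genes tested, 8.46% lay wholly above and 16.3% wholly below. Direction also went with level. Among genes under 1 CPM, 638 rose and 193 fell, and among genes of 100 CPM or more, 410 rose and 1007 fell. The counts of small changes depended on the libraries used. Without harvest 1, 1481 genes rose and 2386 fell, without sg4 2010 rose and without sg6 1663. The counts past 2-fold ran from 376 to 469 up and from 144 to 184 down when a library, a harvest or a line was left out. They were 215 and 84 with a filter at a mean of 1 CPM, 610 and 188 with no filter, and 187 and 49 in a test against a 2-fold change.

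**Figure D1:**
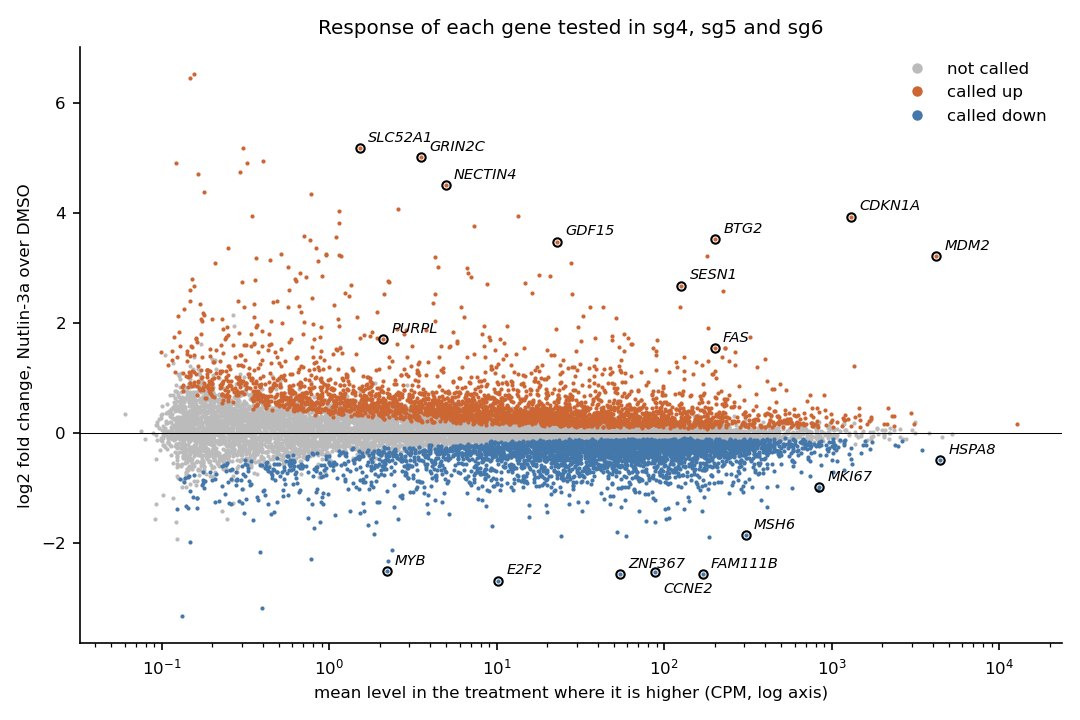
Each point is 1 of the 15568 genes tested, with its mean level in the treatment where it is higher (CPM, log axis) against its log2 fold change over sg4, sg5 and sg6; orange points were called up, blue points down and grey points neither. MDM2 and CDKN1A combine a high level with fold changes of 3.22 and 3.94 on the log2 scale, and E2F2 and ZNF367 lie at -2.69 and -2.57.

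MDM2, the ligase that Nutlin-3a blocks, gained more CPM than any other gene called up. It stood at 440 to 493 CPM (median 445) in the DMSO libraries and at 3463 to 5179 CPM (median 4148) in the Nutlin-3a libraries, with no overlap. Its log2 fold change was 3.22 (SE 0.09, edgeR adjusted p = 2.84e-11), and 3.25 in the NTC lines. The gene lies on chromosome 12 from 68808176 to 68850686. CDKN1A, on chromosome 6 from 36676460 to 36687339, ran from 75.9 to 92.1 CPM (median 84.2) with DMSO and from 1073 to 1556 CPM (median 1310) with Nutlin-3a. Its log2 fold change was 3.94 (SE 0.07), and 3.78, 4.09 and 3.94 in sg4, sg5 and sg6.

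**Figure D2:**
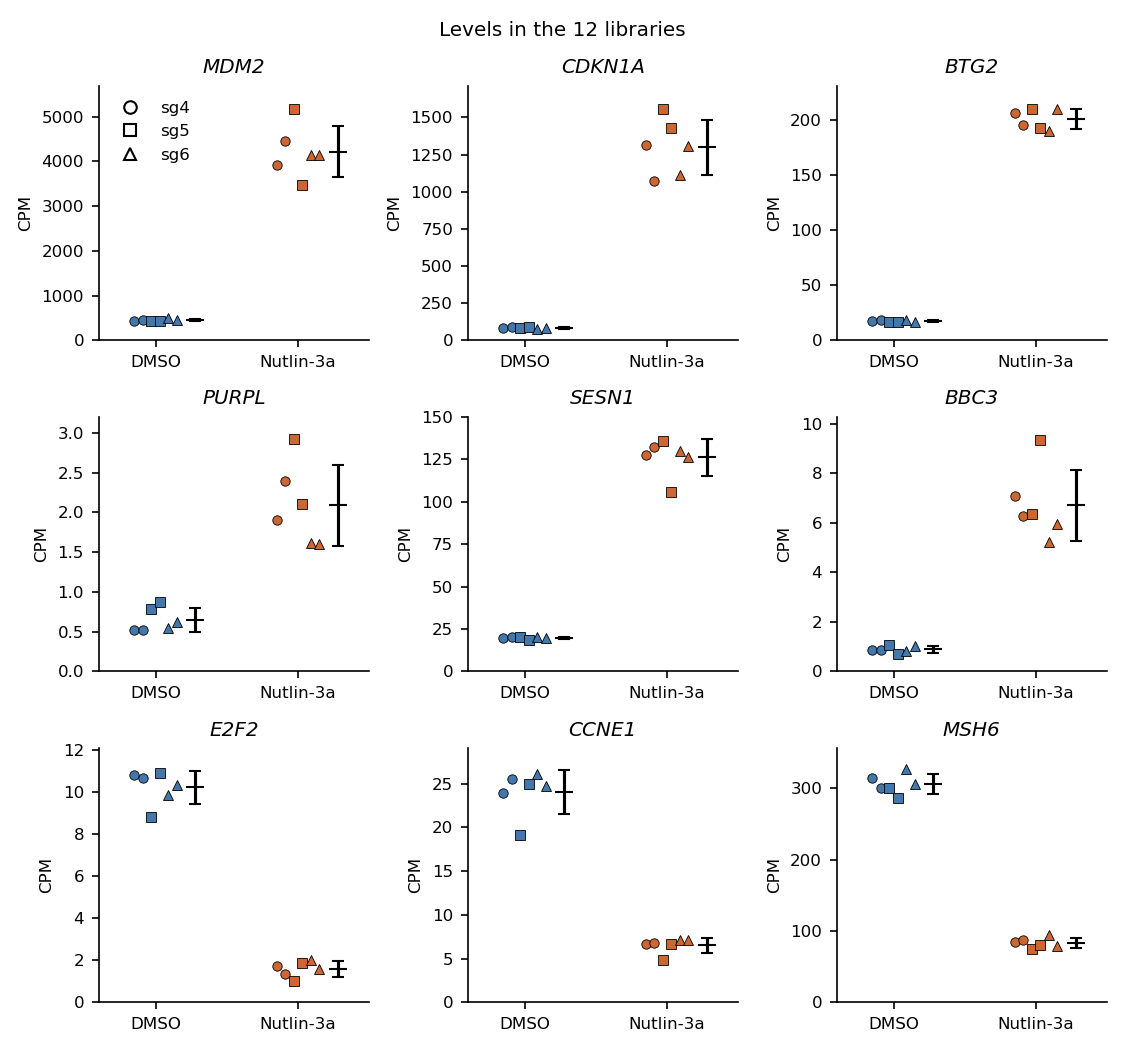
CPM of 9 genes in each of the 12 libraries; circles are sg4, squares sg5 and triangles sg6, with blue for DMSO, orange for Nutlin-3a, and the bar giving the mean and SD of the 6 libraries. MDM2, CDKN1A, BTG2, PURPL, SESN1 and BBC3 lie higher with Nutlin-3a without overlap, and E2F2, CCNE1 and MSH6 lie lower without overlap.

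Members of the gene lists below were chosen with earlier results of these data known, so their counts are descriptions and no test. Over all genes tested, 20.5% rose and 23.2% fell. Genes of p53 feedback and growth arrest rose together. Of 25 on the list, 23 rose and none fell, with a median log2 fold change of 1.24 beside 0.02 over all genes tested. All Nutlin-3a libraries lay above all DMSO libraries in 21 of them, beside 8.46% of all genes tested. Their summed level went from 3320 to 3558 CPM with DMSO to 10109 to 12162 CPM with Nutlin-3a. BTG2, an antiproliferative adaptor of the deadenylase complex, ran from 16.7 to 18.4 CPM with DMSO (median 17.4) and from 190 to 210 CPM with Nutlin-3a (median 201). Its log2 fold change of 3.53 had the smallest p of all genes (SE 0.04, edgeR adjusted p = 1.4e-14). SESN1, a sestrin that restrains mTORC1, ran from 18.6 to 20.3 CPM and from 106 to 136 CPM, a log2 fold change of 2.68 (SE 0.06). GDF15, a secreted factor of the TGF-beta superfamily, ran from 1.73 to 2.69 CPM and from 17.8 to 30.3 CPM, a log2 fold change of 3.48. The phosphatase PPM1D, which acts back on p53, rose by 1.21 on the log2 scale, and the kinase PLK3 by 1.72. PLK2 and CCNG2 rose by 0.34 and 0.39 with overlapping libraries. RCHY1, a second ubiquitin ligase for p53, had a log2 difference of -0.03 and PRDM1 one of -0.12, and neither passed.

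Apoptosis genes rose nearly as a block. Of the 23 tested, 22 rose (95.7%, beside 20.5% of all genes tested) and 1 fell (4.35%, beside 23.2%), with a median of 1.08. BBC3, which encodes the BH3-only protein PUMA, went from 0.683 to 1.07 CPM with DMSO (median 0.863) to 5.24 to 9.35 CPM with Nutlin-3a (median 6.32), a log2 fold change of 2.91. FDXR, a mitochondrial reductase, rose by 2.55, and TP53I3, a quinone oxidoreductase, by 2.29. Among the death receptors, FAS stood at 59.7 to 77.8 CPM and then at 184 to 225 CPM (log2 fold change 1.54), and TNFRSF10B, a receptor for TRAIL, at 147 to 164 CPM and then at 346 to 367 CPM (log2 fold change 1.21, SE 0.04). TNFRSF10D, a TRAIL receptor that does not signal death, rose too, by 0.89. BAX, the pore former of the outer mitochondrial membrane, rose by 1.17. The survival genes BCL2L1 and MCL1 rose as well, by 1.12 and by 0.15, the latter with overlapping libraries. The 1 member that fell was BID, by 0.18 on the log2 scale.

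Repair targets of p53 moved less uniformly. Of 14 tested, 8 rose (57.1%, beside 20.5% of all genes tested) and 2 fell (14.3%, beside 23.2%), and the median was 0.51. RRM2B, the p53-inducible subunit of ribonucleotide reductase, rose from 148 to 177 CPM with DMSO to 335 to 443 CPM with Nutlin-3a (log2 fold change 1.36, SE 0.07). POLH, a translesion polymerase, went from 68.0 to 73.6 CPM to 165 to 179 CPM (1.24, SE 0.04). The damage sensors XPC and DDB2 rose by 1.22 and 1.04. FANCC and XRCC5 fell by 0.51 and 0.16 on the log2 scale, and ERCC5, POLK and MGMT did not pass. In metabolism, redox and lysosome genes, 20 of 31 rose (64.5%) and 2 fell (6.45%), with a median of 0.69. ACER2, a ceramidase of the Golgi, ran from 2.00 to 2.33 CPM with DMSO and from 13.9 to 15.8 CPM with Nutlin-3a, a log2 fold change of 2.74 (SE 0.07). TIGAR, which lowers fructose 2,6-bisphosphate, went from 90.8 to 105 CPM to 297 to 357 CPM, a log2 fold change of 1.74. SUSD6 rose by 1.94, the coenzyme A enzyme PANK1 by 1.81 and the lipid kinase DGKA by 1.63. GLS2, a glutaminase, had the largest log2 fold change on the list, 3.26, at a mean of 0.951 CPM with Nutlin-3a. The autophagy genes were mixed: DRAM1 rose by 1.13 and ULK1 by 0.43, UVRAG and ATG4C fell by 0.32 and 0.25, and ULK2, ATG4A, ATG10 and VMP1 did not pass.

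A further list of direct p53 targets with other roles had 42 of 46 genes up, 1 down and a median of 0.98. These shares are 91.3% and 2.17%, beside 20.5% and 23.2% of all genes tested. NECTIN4, a cell adhesion receptor, went from 0.157 to 0.257 CPM with DMSO to 4.43 to 5.52 CPM with Nutlin-3a, a log2 fold change of 4.52 (SE 0.13). CYFIP2, a subunit of the WAVE actin complex, ran from 46.3 to 50.1 CPM and from 175 to 191 CPM (1.92, SE 0.04). RNF19B, a ubiquitin ligase, rose by 1.62 and TLR3, a sensor of double-stranded RNA, by 1.65. STEAP3 fell by 0.16, and PTAFR, TNFAIP8 and WRAP53 did not pass.

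Further large increases lay outside these roles, apart from that of HES2, which is on the last list. SLC52A1, a riboflavin transporter, ran from 0 to 0.0929 CPM with DMSO and from 1.30 to 1.77 CPM with Nutlin-3a, a fitted log2 fold change of 5.19 (SE 0.31). It was 4.20 in sg4, 5.78 in sg5 and 7.26 in sg6, on DMSO levels near the floor. GRIN2C, a subunit of NMDA glutamate receptors, ran from 0.0678 to 0.171 CPM and from 2.72 to 5.13 CPM (5.03, SE 0.22). The dynein chain gene WDR63 rose by 3.95, the repressor gene HES2 by 3.82 and RRAD, a Ras-like GTPase of calcium channels, by 3.76. NBEAP1, a pseudogene that may share reads with its parent, rose by 4.04, and the noncoding AL109976.1 by 3.56. The DMSO means of HES2, NBEAP1 and AL109976.1 were 0.0802, 0.0669 and 0.0926 CPM. With Nutlin-3a they were 1.15, 1.15 and 1.10 CPM. An abundant RNA could gain many CPM by a small ratio. EEF1A1, the elongation factor, went from 11084 to 11845 CPM with DMSO to 11886 to 13633 CPM with Nutlin-3a, a log2 fold change of 0.17.

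Noncoding genes moved upward more often than downward. Of 676 lincRNA genes tested, 171 rose and 40 fell, and of 652 antisense genes 169 rose and 36 fell, beside 2676 up and 3403 down of 12923 protein-coding genes. The split by level matters here, since many noncoding genes are low. At 1 CPM or more, 34.9% of 218 lincRNA genes rose and 8.72% fell, beside 21.1% and 29.7% of 11131 protein-coding genes. Under 1 CPM, 20.7% of lincRNA genes and 18.5% of protein-coding genes rose. The sources used here do not say if reads were counted by strand, so the value of an antisense gene may hold reads of its partner. Of 14 tested noncoding RNAs linked to p53, 9 rose (64.3%, beside 20.5% of all genes tested) and 1 fell (7.14%, beside 23.2%). MIR34AHG, the host of the miR-34a precursor, went from 0.800 to 1.47 CPM to 2.20 to 7.11 CPM (2.03, SE 0.27). NEAT1, the scaffold of paraspeckles, ran from 89.8 to 141 CPM and from 180 to 356 CPM (1.23, SE 0.14). LNCTAM34A, antisense to MIR34AHG, had a log2 fold change of 2.77 and PINCR one of 2.81, both under 1 CPM. LINC02086 rose by 2.76 and was chosen after its values were seen. TUG1 fell by 0.17, and MALAT1 and GAS5 did not pass.

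Full p53 consensus matches close to a start were rare, and most of those in tested genes lay in genes that rose. Of 35116 RefSeq promoter windows (GRCh38.p14, 250 bases before to 50 after a start), 10 held the full p53 consensus on either strand, with up to 13 bases between its half-sites, which is 0.0285%. A single half-site, which overlaps this definition, was in 6.63% of windows. Of the 10, 6 belong to tested genes. LNCTAM34A, PURPL, PTCHD4, MCC and DDB2 rose, with log2 fold changes of 2.77, 1.71, 1.69, 1.26 and 1.04. Over all genes tested 20.5% rose, and a link between match and response was not tested. LNCTAM34A, PURPL and DDB2 are also members of the p53 lists above. DYNC2H1, a dynein heavy chain of cilia, did not pass, at 0.04 (SE 0.11). PTCHD4, a patched-domain protein, ran from 13.7 to 15.8 CPM with DMSO and from 42.2 to 52.1 CPM with Nutlin-3a. The stretches are printed to set the matched letters, in capitals, beside these responses. That of LNCTAM34A covers chr1:9182114-9182193 on the forward strand and that of PTCHD4 chr6:48111198-48111277 on the reverse strand. MCC covers chr5:113488469-113488548 on the reverse strand, DDB2 chr11:47214975-47215003 and DYNC2H1 chr11:103109226-103109305, both forward. The match in DDB2 lies from 6 to 26 bases after its start. A match is a description of letters and no evidence of binding, and genes without one can hold sites elsewhere.
LNCTAM34A: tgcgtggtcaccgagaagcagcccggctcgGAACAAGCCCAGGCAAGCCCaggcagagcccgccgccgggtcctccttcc
PTCHD4: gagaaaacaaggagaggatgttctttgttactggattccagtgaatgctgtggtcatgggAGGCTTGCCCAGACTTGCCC
MCC: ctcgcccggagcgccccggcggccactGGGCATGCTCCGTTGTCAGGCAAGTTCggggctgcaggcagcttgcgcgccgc
DDB2: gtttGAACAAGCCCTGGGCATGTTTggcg
DYNC2H1: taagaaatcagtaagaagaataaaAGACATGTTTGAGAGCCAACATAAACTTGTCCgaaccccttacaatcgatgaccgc

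Genes of entry into S phase fell. In bulk RNA, fewer cells in a phase of the cycle and less RNA per cell cannot be told apart. E2F2, an activator E2F, had the largest decrease of the genes named by fold. It ran from 8.81 to 10.9 CPM with DMSO (median 10.5) and from 0.999 to 2.01 CPM with Nutlin-3a (median 1.65), without overlap. Its log2 fold change was -2.69 (SE 0.14, edgeR adjusted p = 9.14e-09), and -2.67 in the NTC lines. MYB, a transcription factor, fell by 2.51, E2F8, a repressor E2F, by 1.19 and E2F1 by 0.90. E2F7, a repressor E2F that p53 is known to induce, rose from 119 to 135 CPM to 198 to 238 CPM, a log2 fold change of 0.77. Of the 21 E2F, RB and MuvB regulators, 14 fell (66.7%, beside 23.2% of all genes tested) and the median was -0.38. The 2 that rose (9.52%, beside 20.5%) were E2F7 and LIN37. RB1 and RBL2 did not pass, at -0.07 and -0.02, and RBL1, the p107 pocket protein, fell by 0.82. MYBL2, a MuvB partner, had a log2 difference of -0.30 and did not pass.

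The list of G1/S and replication genes had 42 of 50 down (84.0%, beside 23.2% of all genes tested) and 3 up (6.00%, beside 20.5%). Its median was -0.79. The E cyclins fell strongly. CCNE2 ran from 72.7 to 104 CPM with DMSO (median 88.9) and from 11.3 to 18.9 CPM with Nutlin-3a (median 15.7), a log2 fold change of -2.52 (SE 0.11). CCNE1 ran from 19.1 to 26.1 CPM and from 4.87 to 7.17 CPM, a log2 fold change of -1.87 (SE 0.08). CDC25A, the phosphatase that activates the kinases of these cyclins, went from 46.2 to 64.8 CPM to 11.4 to 18.7 CPM (-1.87, SE 0.11). The zinc finger gene ZNF367 fell by 2.57, and FAM111B, a protease gene of replicating cells, by 2.56. The origin licensing factors CDC6 and ORC1 each stood at -1.42, and MCM10, which acts in the start of replication, at -1.55. Of the subunits of the MCM2 to MCM7 helicase, MCM2, MCM3, MCM4 and MCM6 fell by 0.67, 0.94, 0.83 and 0.91, while MCM5 and MCM7 did not pass, at -0.24 and -0.23. SLBP, the histone stem-loop binding protein, fell by 1.38, and RRM2, the S-phase subunit of ribonucleotide reductase, by 1.04 from a mean of 825 CPM. PCNA, the sliding clamp and also a known p53 target, rose from 409 to 472 CPM to 495 to 614 CPM (0.37), and LIG1 and TYMS rose by 0.33 and 0.13 with overlapping libraries. TK1, POLD1 and GINS4 did not pass. DTL, the substrate receptor of a ubiquitin ligase for CDT1, is on none of the lists. It fell from 173 to 204 CPM to 43.9 to 55.3 CPM, a log2 fold change of -1.89 (SE 0.06).

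Homologous recombination, Fanconi and mismatch repair genes fell almost without exception, 20 of 21 (95.2%, beside 23.2% of all genes tested), with a median of -0.69. MSH6, a mismatch sensor, ran from 287 to 327 CPM with DMSO (median 304) and from 74.8 to 94.1 CPM with Nutlin-3a (median 83.2). Its log2 fold change was -1.86 (SE 0.05, edgeR adjusted p = 4.11e-11), beside -1.51 in the NTC lines. BARD1, the partner of BRCA1, fell by 1.41, the exonuclease EXO1 by 1.37, BRCA2 by 1.00 and BRCA1 by 0.69. RAD51C rose, by 0.26.

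Mitotic genes fell by less per gene and as widely. Of 49, 48 fell (98.0%, beside 23.2% of all genes tested) and none rose, and the median was -0.61. All Nutlin-3a libraries lay below all DMSO libraries in 43 of them, beside 16.3% of all genes tested. Their summed level went from 13793 to 14993 CPM with DMSO to 8808 to 10034 CPM with Nutlin-3a. HJURP, the chaperone of the centromeric histone CENPA, had the largest decrease on the list, from 73.7 to 81.3 CPM to 29.1 to 40.4 CPM (-1.11), and CENPA fell by 1.03. Cyclin A, CCNA2, went from 310 to 371 CPM to 141 to 188 CPM (-0.99), and cyclin B1, CCNB1, from 480 to 513 CPM to 296 to 361 CPM (-0.55). KIF23, a kinesin of cytokinesis, fell by 0.96 (SE 0.05), the checkpoint kinase BUB1B by 0.85 (SE 0.05) and the spindle kinase AURKA by 0.86. The proliferation antigen MKI67 fell from 787 to 905 CPM to 380 to 472 CPM (-0.99). TOP2A fell by 0.30, UBE2C by 0.20 and CDC20 by 0.32, the last pair with overlapping libraries. PTTG1, securin, did not pass at -0.01. Few mitotic genes reached 2-fold: in a test against a 2-fold change none of the 49 passed, while 10 of the 50 G1/S genes and 12 of the 25 feedback and arrest genes did. Of all 15568 genes tested, 187 passed upward and 49 downward in that test.

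**Figure D3:**
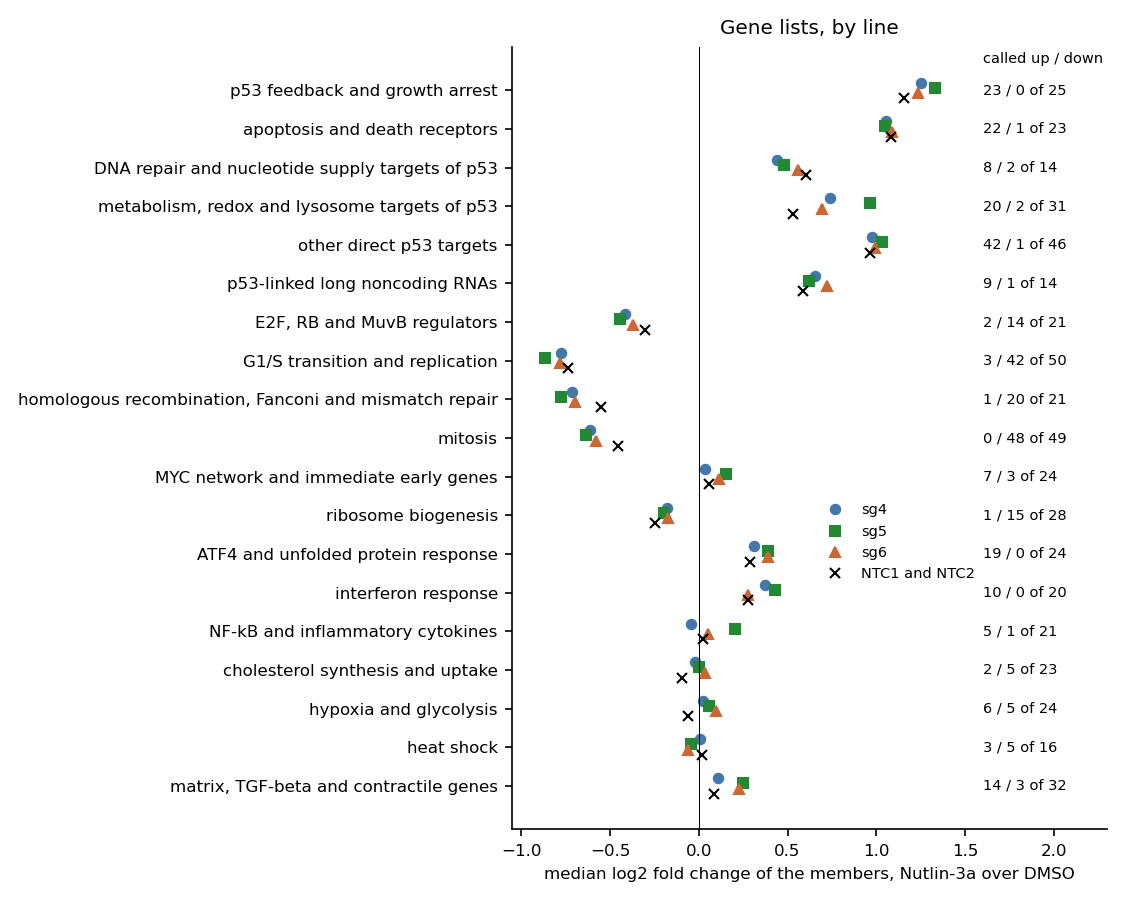
Median log2 fold change of the members tested in 19 gene lists, by line; circles, squares and triangles are sg4, sg5 and sg6, crosses the NTC lines, and the column at the right counts members called up and down over the 3 guide lines. The feedback and arrest list lies at 1.25, 1.33 and 1.24 in the 3 guide lines and the G1/S list at -0.77, -0.87 and -0.78.

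Promoters of the G1/S and mitotic lists differed in the motifs they held. The E2F motif was searched as TTTCCCGC, TTTGGCGC and TTTCGCGC and the cell cycle homology region (CHR) as TTTGAA and TTCGAA, each on both strands of the 300-base window. No E2F word contains a CHR word. Of the 50 G1/S genes, 42 had windows, and 25 of those 53 windows (47.2%) held an E2F word, beside 2.74% of all 35116 windows and 4.05% of windows of protein-coding genes tested. Of the 49 mitotic genes, 43 had windows, and 38 of those 53 windows (71.7%) held a CHR word, beside 16.4% of all windows and 12.1% of those of protein-coding genes tested. A CHR word was in 7.55% of G1/S windows, below its share in protein-coding genes tested, and an E2F word in 7.55% of mitotic windows, above its share there. Stretches of the last 80 bases before a start are shown for 4 genes that fell and hold an E2F word and 4 mitotic genes that hold a CHR word, with the matches in capitals. E2F2 covers chr1:23531234-23531313, CDC25A chr3:48188418-48188497 and ZNF367 chr9:96418371-96418450 on the reverse strand, and DTL chr1:212035668-212035747 on the forward strand. KIF23 covers chr15:69414269-69414348, BUB1B chr15:40160989-40161068, PLK1 chr16:23678809-23678888 and CDC20 chr1:43358901-43358980, all forward. ZNF367 holds 2 E2F words within a few bases of each other, read on the opposite strand.
E2F2: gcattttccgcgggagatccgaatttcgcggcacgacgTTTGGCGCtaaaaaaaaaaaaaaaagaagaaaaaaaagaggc
CDC25A: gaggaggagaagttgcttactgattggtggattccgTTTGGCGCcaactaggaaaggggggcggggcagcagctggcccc
ZNF367: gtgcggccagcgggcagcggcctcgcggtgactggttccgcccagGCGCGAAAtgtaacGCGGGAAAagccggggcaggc
DTL: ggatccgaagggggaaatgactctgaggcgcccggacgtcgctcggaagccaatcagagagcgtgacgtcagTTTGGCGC
KIF23: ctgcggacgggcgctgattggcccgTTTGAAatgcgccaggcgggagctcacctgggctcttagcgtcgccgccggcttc
BUB1B: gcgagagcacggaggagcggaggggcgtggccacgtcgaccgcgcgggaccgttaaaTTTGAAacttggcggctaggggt
PLK1: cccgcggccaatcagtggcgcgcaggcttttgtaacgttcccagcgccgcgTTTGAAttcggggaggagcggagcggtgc
CDC20: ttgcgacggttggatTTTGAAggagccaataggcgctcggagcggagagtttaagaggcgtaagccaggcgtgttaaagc

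**Figure D4:**
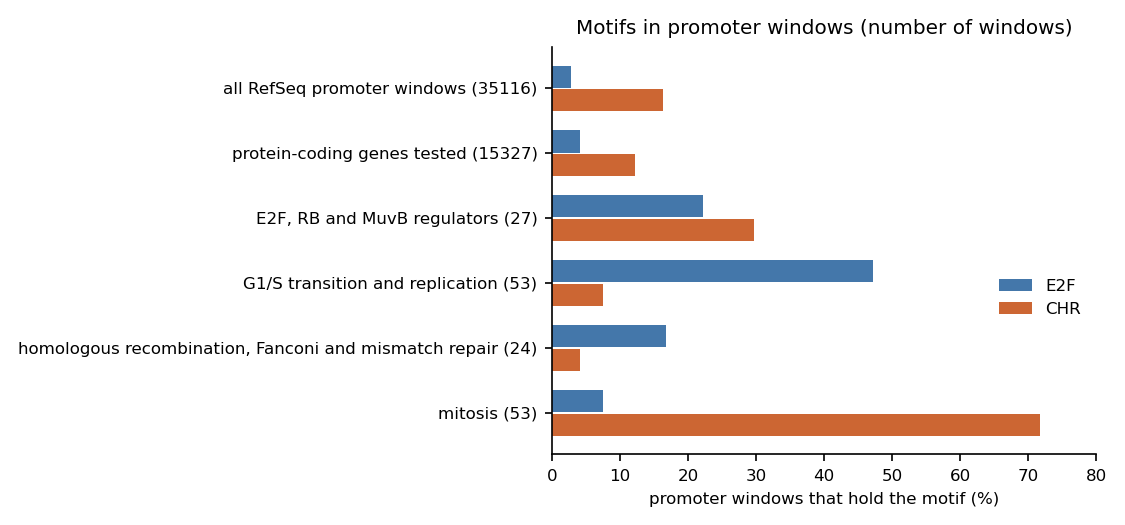
Percent of promoter windows that hold an E2F word (blue) or a CHR word (orange) in 4 cell cycle lists, in all RefSeq windows and in windows of protein-coding genes tested, with the number of windows in brackets. The G1/S list has the highest E2F share of these sets, 47.2%, and the mitotic list the highest CHR share, 71.7%.

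Other programmes moved less. Of 24 genes of the ATF4 and unfolded protein response, 19 rose (79.2%, beside 20.5% of all genes tested) and none fell. Their median was 0.37. DDIT4, an inhibitor of mTORC1 and a known p53 target, stood out at 3.30 to 8.92 CPM with DMSO and 20.7 to 39.7 CPM with Nutlin-3a (2.53, SE 0.22). XBP1 rose by 0.35, ATF4 by 0.20 and the chaperone HSPA5 by 0.46, the last pair with overlapping libraries. In the model over all 24 libraries 8 of these genes were called. MYC fell from 88.0 to 99.9 CPM to 50.8 to 59.9 CPM (-0.77, SE 0.05), and MXD1, a competitor for its partner MAX, rose by 0.90. ATF3, a stress-induced factor, rose by 1.74, while JUN, FOS, FOSL1 and EGR1 did not pass. Of 28 ribosome biogenesis genes, 15 fell (53.6%, beside 23.2% of all genes tested) and 1 rose (3.57%, beside 20.5%). Their median was -0.17. NOLC1 fell by 0.47, DKC1, the pseudouridine synthase of telomerase and snoRNPs, by 0.54 and nucleolin, NCL, by 0.39 from 1223 to 1285 CPM to 949 to 968 CPM. MYBBP1A, a nucleolar protein named with PURPL in earlier work, did not pass, at -0.04 (SE 0.15). ELAVL1, the RNA-binding protein HuR, fell by 0.16 with overlapping libraries (SE 0.05, edgeR adjusted p = 0.0177), and its call was lost in 6 of 30 alternatives.

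Of the 21 NF-kB and cytokine genes tested, 5 rose (23.8%, beside 20.5% of all genes tested) and 1, NFKBIA, fell (4.76%, beside 23.2%). IL1B and IL1A, the interleukin-1 ligands, went from 21.8 to 30.5 CPM to 101 to 148 CPM (2.29, SE 0.11) and from 23.8 to 33.9 CPM to 68.9 to 113 CPM (1.69, SE 0.10). IL6, CXCL1, CXCL8 and NFKB1 did not pass. Of 20 interferon response genes 10 rose (50.0%, beside 20.5% of all genes tested) and none fell, with a median of 0.34. Only 2 of the 20, TLR3 and IRF1, had all Nutlin-3a libraries above all DMSO libraries, beside 8.46% of all genes tested. TLR3 is also on the list of other direct p53 targets. TLR3 led at 1.65, IRF1 rose by 0.55 and STAT2 by 0.42, the last with overlapping libraries, and IFIT1 did not pass. ACTA2, smooth muscle actin, rose from 19.6 to 23.1 CPM to 47.8 to 62.8 CPM (1.34, SE 0.07). This was the largest log2 fold change among 32 matrix, TGF-beta and contractile genes. Of these 32, 14 rose (43.8%, beside 20.5% of all genes tested) and 3 fell (9.38%, beside 23.2%). Among heat shock genes HSPA4L rose by 1.55 and HSPA8 fell by 0.49, and HSP90AA1 and HSP90AB1 did not pass. Of 23 cholesterol genes, 8.70% were called up and 21.7% down, and of 24 hypoxia and glycolysis genes 25.0% and 20.8%, beside 20.5% and 23.2% of all genes tested. The number of hypoxia and glycolysis genes up, 6, ran from 3 to 10 when single libraries were left out.

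The 3 lines were compared with each other by a test of the interaction of line and treatment. No gene of 15846 passed after adjustment (0%) in edgeR, 79 (0.499%) had an unadjusted p under 0.05, and DESeq2 called 2. With p-values spread evenly, a share of 0.05 would lie under that threshold. The share found was lower, so the test was stricter here than its threshold states. In simulated data the same test recovered 61.2% of genes whose response differed by 2-fold and 14.9% of those that differed by 1.5-fold, so small differences between lines could have been missed. The simulated difference lay in sg5 alone, in genes with a mean of at least 1 CPM. Simulated counts were drawn independently, with no shift of a whole library, so recovery in the real data may be lower. The 3 smallest p-values, none called, belonged to NPIPA3, SMIM11A and AP001453.5, and the first pair have near-identical copies that can share reads. Fitted line by line, sg4 had 708 genes up (4.47%) and 1148 down (7.24%), sg5 801 (5.05%) and 1530 (9.66%), and sg6 751 (4.74%) and 1261 (7.96%), of the same 15846.

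Genes that responded in the NTC lines, whose libraries are separate from these 12, responded in the guide lines too. The NTC fit called 320 genes up (2.07%) and 102 down (0.661%) by at least 2-fold, of 15423 tested. Of the 316 up genes tested in the guide lines, 313 had the same direction and 296 were called (93.7%, beside 20.5% of all genes tested). Of the 98 down genes, 94 had the same direction and 84 were called (85.7%, beside 23.2%). The median log2 fold change of the up genes was 1.47 in sg4, 1.52 in sg5 and 1.55 in sg6, and 1.46 in the NTC lines. For the down genes it was -1.25, -1.28 and -1.22, and -1.24 in the NTC lines. BTG2 stood at 3.53 in the guide lines and 3.56 in the NTC lines, TNFRSF10B at 1.21 and 1.21, and CYFIP2 at 1.92 and 1.93. The mitotic list had a median of -0.61 in the guide lines and -0.46 in the NTC lines. KIF23 stood at -0.96 and -0.64 and MKI67 at -0.99 and -0.59. Neither difference between guide and NTC lines passed, each with an edgeR adjusted p = 0.408. The NTC lines were not alike, with KIF23 at -0.53 in NTC1 and -0.75 in NTC2, and MKI67 at -0.42 and -0.75. In the NTC fit MKI67 was not called (edgeR adjusted p = 0.0739).

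**Figure D5:**
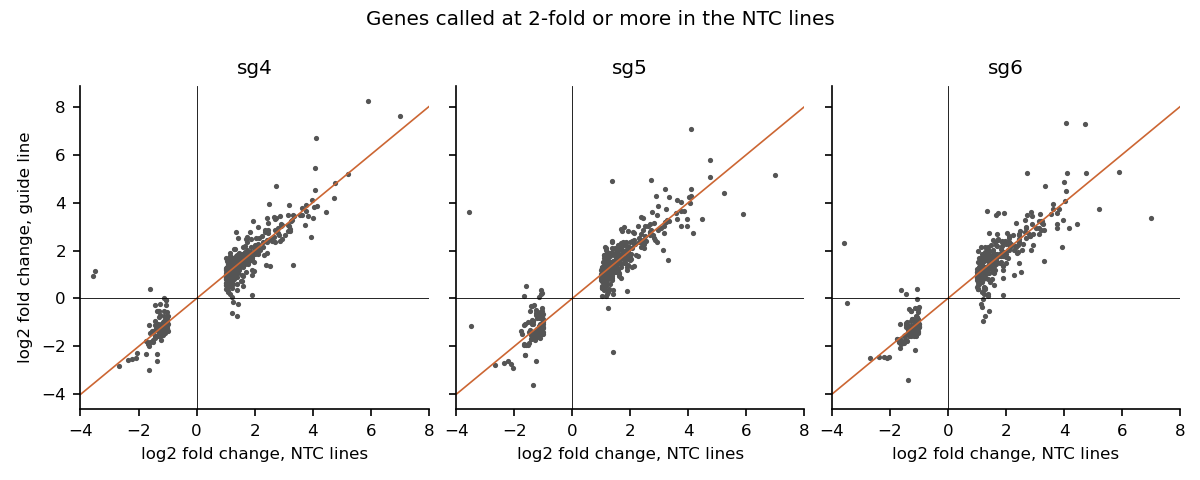
Genes called at 2-fold or more in the NTC lines, with their log2 fold change there against that in sg4, sg5 and sg6; the line marks equal values. Most points lie near the line, with median ratios of 0.973, 0.992 and 0.990 for the genes up in the NTC lines.

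The difference between the responses of the guide lines and the NTC lines was tested with the line as the unit, 3 lines against 2. Of 17011 genes, 1 passed (0.00588%) and 2061 (12.1%) had an unadjusted p under 0.05. The 1 gene is the noncoding AP001273.2, whose log2 difference was 2.07 (SE 0.17, edgeR adjusted p = 0.036). Its levels overlapped in every group, at 0 to 3.31 CPM with DMSO and 0 to 4.82 CPM with Nutlin-3a in the 12 libraries, and it did not pass when harvests were fitted singly. GDF15 had the smallest unadjusted p among the 90 genes named by rule, 0.00115. Its log2 fold change was 3.48 in the guide lines and 2.74 in the NTC lines, and the difference had an edgeR adjusted p = 0.408. The count moved with the lines used. It was 0 without sg5 or without sg6, 98 without NTC1 and 7271 without NTC2, and with 1 NTC line left that line is assumed to vary like the guide lines. Of the libraries compared, 1 DMSO library of NTC1 had a GC slope of 0.29. The part of base composition in this comparison was not tested beyond the removal of the GC trend, which left 1 gene called.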

How the data were processed

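Per the labels' protocols, RNA was extracted with a column kit and made into stranded mRNA libraries. Per the submitters' processing notes the tools were cutadapt, STAR, RSEM and DESeq2 with hg38; no source used here gives their versions or the annotation release. The authors deposited 1 table of RSEM estimated counts per gene, in which reads shared by several genes are split, so that 5.60% to 6.13% of its values were fractional. The 45 rows for the Y copies of pseudoautosomal genes (0.0222% of counts) were added to their X rows, which left 58825 genes, and counts were rounded. Gene positions came from GENCODE 29, in which 58552 IDs were found.

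Genes were filtered with filterByExpr (minimum count 10), scaled by TMM and tested with edgeR 4.0.16 (R 4.3.3), by the robust quasi-likelihood F test with line as a term. P-values were adjusted by Benjamini-Hochberg over all genes tested and called at 0.05. This fit has 8 residual degrees of freedom, the line-by-treatment fit 6, and the comparison with the NTC lines, on sums of the harvests of a line, 3. P-values measure the spread between harvests and lines and not counting error, which at these depths weighs on genes below about 1 CPM. SE is the log2 fold change over the root of F. On simulated counts for 15568 genes the main test recovered 95.5%, 98.5% and 100% of changes of 1.5, 2 and 4-fold, and 6.22% of its calls were false. The 200 genes changed in the simulation all had a mean of at least 1 CPM, and its counts were drawn independently, without shifts of whole libraries. Recovery under 1 CPM, where 3571 tested genes lie, was not measured. Gene lists were described by counts and medians, with no test. The members and lists were chosen with earlier results of these data known. Genes are named by a rule: the 12 largest fold changes each way among called genes of at least 1 CPM with 1 direction in all 6 pairs, the 8 largest CPM gains and losses, the 3 smallest p-values of each list, and a few chosen genes, among them PURPL, ELAVL1, MYBBP1A, CDKN1A and MDM2. Values of several of these genes are left out. Other list members illustrate their list and were chosen with values in view. Promoter windows and sequences came from RefSeq (GRCh38.p14); 10965 of 15568 genes tested (70.4%) had one, so no share is given over all tested genes. FAM212B was not matched. Alternatives were RLE scaling, 2 other filters, DESeq2 1.42.0, removal of a GC trend, a harvest term, summed harvests, other sets of libraries, a test against 2-fold, and leaving out each library, harvest and line.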

Additional observations from a re-analysis of the deposited data

Results flagged for a closer look

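In 7 of 64 groups of 6 libraries checked (10.9%; chance gives about 1 in 20), 1 library lay far from the other 5 relative to their range, and each time it came from sg5. With DMSO, harvest 1 of sg5 had CCNE1 at 19.1 CPM, below the 24.0 to 26.1 CPM of the others, and AC099329.1 at 4.12 CPM, above their 1.26 to 2.29 CPM. With Nutlin-3a, the same harvest of sg5 was lowest for CCNE1, at 4.87 CPM beside 6.65 to 7.17 CPM, for CDC25A, at 11.4 CPM beside 16.0 to 18.7 CPM, and for ELAVL1, at 119 CPM beside 135 to 143 CPM. Harvest 3 of sg5 with Nutlin-3a, the library with the steep GC slope, was highest for MYBBP1A, at 42.3 CPM beside 20.8 to 28.7 CPM, and for AC099329.1, at 1.65 CPM beside 0 to 0.571 CPM. The difference between the responses of the guide lines and the NTC lines passed its test for AP001273.2, at 2.07 on the log2 scale. The causes of these values were not tested.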

How the results depend on the processing

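Of 90 named genes, 88 were called and 48 stayed called under all 30 alternatives; none of the called genes changed sign. Outside the test against a 2-fold change, 9 lost the call somewhere: GAPDH in 15 alternatives, ELAVL1 in 6, and AC099329.1, CALM2, CAV1, CYP51A1, TGFBR1, BIRC3 and EEF1A1 in 1 to 3. Genes up and down numbered 1178 and 1692 in the model of all 24 libraries, and 187 and 49 in the test against 2-fold, where the counts past 2-fold were the same. With the guide 2 line added 1733 rose, and 3322 rose when harvest 1 of that line with Nutlin-3a was left out. Without sg4 2010 rose and without sg6 1663. Leaving out 1 library or 1 harvest gave 1481 to 3881 genes up and 2386 to 4164 down, with 399 to 469 up and 144 to 184 down past 2-fold; both low ends came without harvest 1. A filter at a mean of 1 CPM left 215 up and 84 down past 2-fold. Some of these alternatives use more libraries than the main test, and others use fewer libraries or genes. The cause of these shifts was not tested. The interaction of line and treatment called 51 genes with no filter, 2 with DESeq2 and 0 without any single library. The comparison with the NTC lines called 6 genes with no filter, 20 with DESeq2, 98 without NTC1, 7271 without NTC2 (the 1 NTC line left is assumed to vary like the guide lines), and 0 without sg5, without sg6 or with 20 single libraries. Same-numbered harvests were not paired in the main test, while the naming rule did use them as its 6 pairs. Deviations of same-numbered libraries correlated at 0.05, 0.38 and 0.23 in sg4, sg5 and sg6. With the replicate block 4190 genes rose and 4357 fell, and with the block and the GC trend removed 4859 rose and 4556 fell; in the other comparisons the block called 0 genes. An added alternative, chosen after seeing the data, left out harvest 3 of sg5 with Nutlin-3a and removed the GC trend, and gave 3987 up and 3923 down.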

Other observations

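Some further RNAs outside the lists were chosen after their values were seen. AL135905.1, annotated as antisense, went from a mean of 0.977 CPM with DMSO to 6.99 CPM with Nutlin-3a, a log2 fold change of 2.84 (SE 0.14), beside 3.04 in the NTC lines. NOP14-AS1, antisense to NOP14, rose from 2.68 to 6.18 CPM (1.21, SE 0.10). The noncoding AC125807.2 fell from 19.1 to 10.2 CPM (-0.90, SE 0.09), with libraries that did not overlap. LHX4, a LIM homeobox gene, ran from 1.94 to 3.08 CPM with DMSO and from 0.373 to 0.646 CPM with Nutlin-3a (-2.13, SE 0.14), and NXPH2, a neurexophilin, from 1.44 to 2.30 CPM and from 0.408 to 0.628 CPM (-1.83, SE 0.15). Of the 107 genes up by at least 4-fold, 21 are on the gene lists and 76 are protein-coding. Libraries did not overlap in 104 of the 107, beside 8.46% wholly above over all genes tested. The 107 were chosen on these same libraries, so that count is no separate evidence.

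Among abundant RNAs, decreases outside the mitotic and replication lists included HSPA8, the constitutive HSP70 chaperone, from 3695 to 4833 CPM with DMSO to 2239 to 3646 CPM with Nutlin-3a (-0.49, SE 0.10). THBS1, the secreted thrombospondin, went from 3196 to 3858 CPM to 2606 to 3046 CPM (-0.31, SE 0.05). The chromatin protein DEK fell by 0.56 and TMPO, which encodes the lamina-associated LAP2 proteins, by 0.70.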
